A study of Mus musculus with 48 samples.

Results

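The enzymes of glycolysis, the pentose phosphate pathway, the pyruvate dehydrogenase complex and the tricarboxylic acid (TCA) cycle were followed as a list of 44 genes, chosen by symbol among the 50600 mouse genes counted. The list holds 18 glycolytic genes, 7 of the pentose phosphate pathway, 5 of pyruvate dehydrogenase and its control, 12 of the mitochondrial TCA cycle, and the 2 cytosolic isoenzymes Idh1 and Mdh1. Of these, 43 passed the filter on low counts and were tested among 13889 genes. Ldhb, which encodes the second lactate dehydrogenase subunit, did not pass, with at most 0.214 CPM (read counts relative to the library's total) in any library. The cells were mPDAC, a line from a mouse pancreatic ductal adenocarcinoma, which the labels give an FVB/N x C57BL6 background and an age of 8 weeks. They received 50 µM N6L, a pseudopeptide antagonist of nucleolin, for 48 h, or no treatment (NT), in 3 cultures each, numbered 1, 2 and 3 with N6L and 1, 2 and 4 without. Each culture gave a cytoplasmic RNA library and a library of the RNA pooled from the polysomal part of a sucrose gradient, 12 libraries in all. As a single line grown in culture, it carries no stroma or host tissue, and in bulk RNA a change in the share of some cells and a change in RNA per cell cannot be told apart.

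Glycolysis splits glucose in the cytosol into pyruvate, which lactate dehydrogenase reduces to lactate or which enters mitochondria. There, pyruvate dehydrogenase turns it into acetyl-CoA, which the TCA cycle oxidises, while pyruvate dehydrogenase kinases switch the complex off by phosphorylation. The pentose phosphate pathway branches from glycolysis and yields NADPH and ribose. Cultured tumour cells commonly make lactate from glucose even with oxygen present, so cytosolic and mitochondrial enzymes are often considered side by side.

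CPM values were scaled by the trimmed mean of M values (TMM), so each is relative to the other mRNAs of its library and a loss of all polysomes together cannot be seen. Library totals ranged from 19519911 to 44972333 counts. Of 10 duct markers, 8 averaged at least 1 CPM in every group, and all 10 summed to 6565 to 10797 CPM. The keratins Krt18, Krt8 and Krt19 were highest, at 3132, 2823 and 1623 CPM in untreated cytoplasm. The epithelial marker Epcam and Cldn4 were nearly absent, with group means of at most 0.151 and 0.0558 CPM. Acinar markers summed to 27.6 to 82.9 CPM, and only Cela1 among these averaged at least 1 CPM (group means 32.4 to 63.0 CPM). Fibroblast, leukocyte and endothelial markers summed to at most 2.13 CPM. Mitochondrially encoded mRNAs took 0.752 ± 0.266% of cytoplasmic counts without and 0.184 ± 0.0604% with N6L, and ribosomal protein mRNAs 11.5 ± 1.07% and 7.004 ± 0.484% (SD, n = 3). Both moved with treatment in the same libraries as the enzymes, and their part in the results was not tested. The polysomal library of N6L culture 3 correlated least with its own group (mean r = 0.974, against 0.979 and 0.985 for the polysomes of N6L cultures 1 and 2). Whether reads were counted by strand is not known here. The counts of Pfkp, Pfkm, G6pdx, Idh3b and Rpe, which lie opposite the expressed genes Pitrm1, Senp1, Ikbkg, Nop56 and Kansl1l, are therefore uncertain to that extent. Near-identical pseudogene copies held at most 3.16% as many counts as the parent gene among tested members, for Eno1, but how reads shared with copies were counted is not known here.

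In untreated cytoplasm the enzymes spanned a wide range of levels per length. Gapdh and Aldoa, which encode glyceraldehyde-3-phosphate dehydrogenase and the main aldolase, both stood at 376 CPM per kb of merged exon sequence. Pkm, the pyruvate kinase gene, followed at 350.4 CPM per kb and Ldha, the lactate dehydrogenase A gene, at 301 CPM per kb. The highest mitochondrial member was Mdh2, mitochondrial malate dehydrogenase, at 152 CPM per kb. The lowest tested members were Eno2 at 0.468, Pfkfb3 at 1.35 and Aldoc at 1.51 CPM per kb, all isoforms or regulators of glycolytic steps. Within a step, per kb of merged exons, hexokinase message was shared between Hk1 (49.3 ± 3.46%) and Hk2 (50.7 ± 3.46%, SD, n = 3). Phosphofructokinase message was mostly Pfkm (64.9 ± 3.63%), then Pfkl (27.8 ± 3.26%) and Pfkp (7.32 ± 0.371%). These levels, their order and the shares depend on the length used. Merged exons span 8532 nt for Hk1 and 5969 nt for Hk2, but the longest annotated transcripts 4278 and 5513 nt. The even split of hexokinase therefore holds for merged exons only. Aldolase, enolase and lactate dehydrogenase were each carried by 1 gene, with Aldoa at 99.6 ± 0.148%, Eno1 at 99.4 ± 0.327% and Ldha at 99.97 ± 0.0252% of the message of their step.

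In cytoplasm, N6L raised 4 enzyme mRNAs and lowered 5 of the 43 tested (edgeR adjusted p under 0.05 over all genes), against 14.5% of all genes called higher and 13.8% called lower. The 4 that rose were 2 glycolytic genes of low level, Aldoc and Pfkfb3, the kinase gene Pdk1 and cytosolic Idh1. Pfkfb3 encodes the enzyme that makes fructose-2,6-bisphosphate, the activator of phosphofructokinase, Aldoc a brain-type aldolase, Pdk1 an inhibitory kinase of pyruvate dehydrogenase, and Idh1 the NADPH-producing isocitrate dehydrogenase of the cytosol. The 250 bases before the RefSeq start of each (GRCm38.p6, gene strand, 5′ to 3′) are shown because these 4 moved the same way, with capitals marking ACGTG or GCGTG on either strand, the core letters of hypoxia-inducible factor sites.
Pfkfb3 (chr2:11553930-11554179, minus strand): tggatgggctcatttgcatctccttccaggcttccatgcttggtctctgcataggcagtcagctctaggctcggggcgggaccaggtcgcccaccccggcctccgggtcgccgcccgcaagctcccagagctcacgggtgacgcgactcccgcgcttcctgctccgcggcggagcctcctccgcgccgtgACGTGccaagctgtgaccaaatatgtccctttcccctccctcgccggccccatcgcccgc
Aldoc (chr11:78322823-78323072, plus strand): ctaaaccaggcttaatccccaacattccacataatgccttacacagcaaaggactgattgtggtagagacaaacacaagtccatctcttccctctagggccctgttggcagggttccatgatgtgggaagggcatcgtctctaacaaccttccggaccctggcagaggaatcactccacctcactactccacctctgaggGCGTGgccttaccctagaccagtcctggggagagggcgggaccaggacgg
Pdk1 (chr2:71872974-71873223, plus strand): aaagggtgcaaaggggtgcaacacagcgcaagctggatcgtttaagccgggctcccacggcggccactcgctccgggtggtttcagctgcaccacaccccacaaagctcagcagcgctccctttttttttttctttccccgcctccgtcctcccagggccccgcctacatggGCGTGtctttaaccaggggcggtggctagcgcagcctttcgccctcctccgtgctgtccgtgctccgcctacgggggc
Idh1 (chr1:65186480-65186729, minus strand): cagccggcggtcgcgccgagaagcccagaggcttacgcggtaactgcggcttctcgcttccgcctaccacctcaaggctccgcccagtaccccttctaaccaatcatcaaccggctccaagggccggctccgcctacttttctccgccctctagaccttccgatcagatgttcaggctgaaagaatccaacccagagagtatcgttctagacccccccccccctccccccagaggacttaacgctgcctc
Pfkfb3 held 1 ACGTG, Aldoc and Pdk1 1 GCGTG each, and Idh1 neither in this window. The same letters occurred in 57.2% of 10092 windows of tested genes (ACGTG in 21.8%, GCGTG in 46.2%), in 27 of 42 windows of tested members, in 3 of 4 that rose and in 5 of 5 that fell. A match is a description, not a site. A window of Ldha, which did not pass the test in cytoplasm, held 5 ACGTG matches, of which 2 pairs overlap as CACGTG.

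Pfkfb3 (chromosome 2, 11471433 to 11554077, minus strand) was at 9.77, 11.7 and 9.06 CPM in the 3 untreated cytoplasms and at 24.3, 29.0 and 29.5 CPM with N6L. The groups did not overlap and the level was 2.72-fold higher (log2 1.44 ± 0.20 SE, edgeR adjusted p = 0.000949). In polysomes it stood at 8.49, 12.3 and 7.56 CPM without and 19.8, 21.6 and 16.1 CPM with N6L, again without overlap, a log2 change of 1.02 ± 0.20 (edgeR adjusted p = 0.00878). Without NT culture 1 or N6L culture 2 the polysomal call was lost (edgeR adjusted p = 0.0733 and 0.0866).

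Aldoc (chromosome 11, 78322968 to 78327781, plus strand) showed the largest change of any member. It was at 4.67, 6.90 and 3.25 CPM in untreated cytoplasm against 14.7, 20.3 and 20.5 CPM with N6L, and at 4.24, 8.45 and 4.04 against 15.9, 23.4 and 30.9 CPM in polysomes. Every treated library lay above every untreated one, 3.75-fold higher in cytoplasm (log2 1.91 ± 0.33 SE, edgeR adjusted p = 0.00234) and 4.17-fold in polysomes (log2 2.06 ± 0.33 SE, edgeR adjusted p = 0.00355). Its share of aldolase message per length went from 0.402 ± 0.148% to 1.86 ± 0.458% in cytoplasm (SD, n = 3), so Aldoa still made up most of the step.

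Pdk1 (chromosome 2, 71873224 to 71903858, plus strand) rose in cytoplasm from 57.8, 74.4 and 49.1 CPM to 101, 120.2 and 118 CPM, with no overlap (log2 0.90 ± 0.18 SE, edgeR adjusted p = 0.00421). In polysomes it was at 68.4, 78.7 and 54.5 CPM without and 94.7, 107 and 93.5 CPM with N6L, a log2 difference of 0.55 ± 0.18 that did not pass the test (edgeR adjusted p = 0.0680). The cytoplasmic change of Pdk1 was 0.51 in a fit with an offset for transcript length and GC content, and 0.34 with the replicate number as a block too, and both passed. Idh1 (chromosome 1, 65158616 to 65186500, minus strand) rose in cytoplasm from 112, 121 and 119 to 159, 189.5 and 179 CPM (log2 0.58 ± 0.16 SE, edgeR adjusted p = 0.0159). Its polysomal values were 98.5, 117 and 103 CPM without and 159, 168 and 116 CPM with N6L, and the lowest treated culture overlapped the untreated ones (log2 0.48 ± 0.16 SE, edgeR adjusted p = 0.0708). The cytoplasmic call on Idh1 was lost without NT culture 1, NT culture 4 or N6L culture 2 (edgeR adjusted p = 0.0707, 0.0555 and 0.109).

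**Figure D1:**
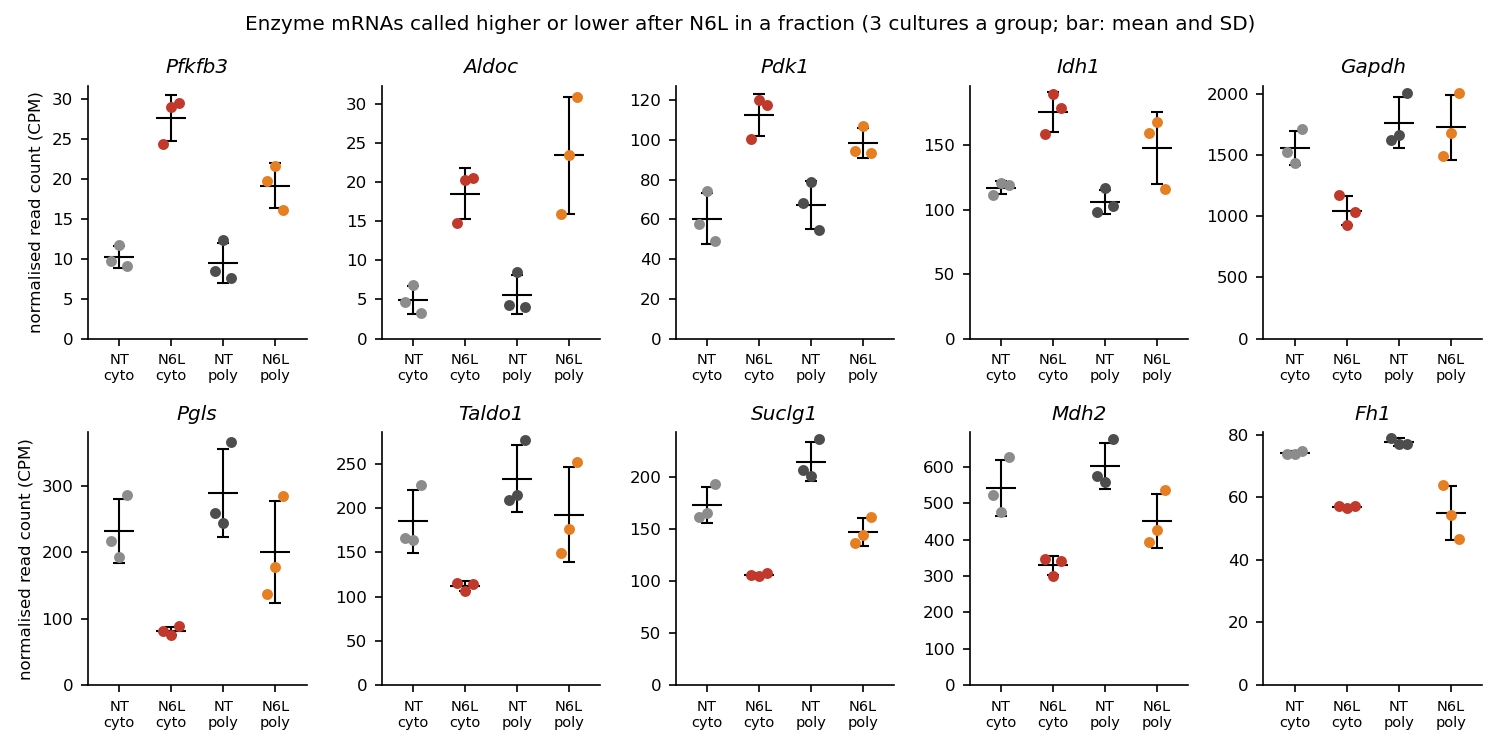
Normalised read counts (TMM-scaled CPM, linear axes from 0) of the 10 enzyme mRNAs called in cytoplasm or polysomes, with 1 point per culture and the mean and SD of 3 cultures in each of 4 groups (NT or N6L, cytoplasm or polysomes). Pfkfb3 and Aldoc stood above all untreated libraries in both fractions, and Gapdh, Pgls and Taldo1 were lower in treated cytoplasm while their polysomal values overlapped.

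The 5 members that fell in cytoplasm were Gapdh, the pentose phosphate genes Pgls and Taldo1, and the TCA cycle genes Suclg1 and Mdh2. Pgls, which encodes 6-phosphogluconolactonase (chromosome 8, 71592176 to 71601092, plus strand), fell furthest. Its cytoplasmic level was 217, 192 and 285 CPM without and 81.0, 75.8 and 88.1 CPM with N6L, 0.353 times the untreated level (log2 -1.50 ± 0.25 SE, edgeR adjusted p = 0.00194). In polysomes Pgls was at 259, 243 and 366 CPM against 136, 177 and 285 CPM, where the groups overlapped and the test was not passed (log2 -0.54 ± 0.25 SE, edgeR adjusted p = 0.180).

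Taldo1, the transaldolase gene that links pentose phosphates back to glycolysis (chromosome 7, 141392199 to 141402968, plus strand), was at 166, 164 and 226 CPM in untreated and 116, 106 and 115 CPM in treated cytoplasm (log2 -0.73 ± 0.20 SE, edgeR adjusted p = 0.0177). Gapdh (chromosome 6, 125161715 to 125166467, minus strand) was at 1525, 1432 and 1711 CPM without and 1169.7, 930.0 and 1035 CPM with N6L (log2 -0.57 ± 0.16 SE, edgeR adjusted p = 0.0170). Neither overlapped between treatments. In polysomes both did, with Taldo1 at 209, 215 and 277 against 149.7, 176 and 253 CPM (log2 -0.28 ± 0.20 SE, edgeR adjusted p = 0.403) and Gapdh at 1623, 1662 and 2003 against 1488, 1678 and 2008 CPM (log2 -0.03 ± 0.16 SE, edgeR adjusted p = 0.919). Gapdh, a usual reference gene for quantitative PCR, was thus 0.672 times its untreated level in cytoplasm after N6L. The change of Taldo1 was -0.43 with the offset for length and GC content. The cytoplasmic call on Taldo1 was lost without NT culture 4 (edgeR adjusted p = 0.0590) and that on Gapdh without NT culture 1 (0.0550), and both without N6L culture 2 (0.0772 and 0.0859).

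Among TCA cycle genes, Suclg1, the shared alpha subunit of succinyl-CoA ligase (chromosome 6, 73248382 to 73276911, plus strand), fell in both fractions. It was at 161, 165 and 193 against 105, 105 and 108 CPM in cytoplasm (log2 -0.71 ± 0.14 SE, edgeR adjusted p = 0.00380) and at 207, 201 and 236 against 136, 144 and 162 CPM in polysomes (log2 -0.54 ± 0.14 SE, edgeR adjusted p = 0.0266). The 2 beta subunit genes of the same enzyme did not pass the test in either fraction, with cytoplasmic log2 changes of 0.04 ± 0.14 for Suclg2 and 0.37 ± 0.20 for Sucla2. Mdh2 (chromosome 5, 135778480 to 135790398, plus strand) fell in cytoplasm from 522, 476 and 627 to 347, 299.6 and 341 CPM (log2 -0.72 ± 0.16 SE, edgeR adjusted p = 0.00713). Its polysomal values, 575, 557 and 676 against 393, 426 and 536 CPM, did not overlap either, but the change did not pass (log2 -0.42 ± 0.16 SE, edgeR adjusted p = 0.117).

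Fh1, the fumarase gene (chromosome 1, 175600374 to 175625635, minus strand), was called in polysomes, at 79.1, 76.98 and 77.1 CPM without and 63.9, 54.4 and 46.6 CPM with N6L (log2 -0.50 ± 0.14 SE, edgeR adjusted p = 0.0372). In cytoplasm it was at 73.9, 73.8 and 74.9 against 57.2, 56.5 and 57.1 CPM, tight groups that did not overlap (log2 -0.38 ± 0.14 SE, edgeR adjusted p = 0.0516), which passed with DESeq2 (adjusted p = 0.00961). In polysomes as a whole, 2 members rose (Pfkfb3 and Aldoc) and 2 fell (Suclg1 and Fh1), against 6.01% and 3.66% of all genes. The count of 4 was 1 without NT culture 1 or N6L culture 2 and 2 without NT culture 4. Over all genes the 1343 called were 203, 146 and 623 without these cultures. The calls on Suclg1 and Fh1 were lost without either of NT cultures 1 and 4 and without N6L culture 2, when the edgeR adjusted p was 0.0855 to 0.164 for Suclg1 and 0.105 to 0.185 for Fh1. Fh1 was also lost without NT culture 2 (0.0892) or N6L culture 3 (0.0821), and Suclg1 without N6L culture 1 (0.0656).

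Isocitrate and malate dehydrogenase each have cytosolic and mitochondrial isoenzymes, and the difference between them was not tested. Cytosolic Idh1 rose in cytoplasm while mitochondrial Idh2, at 188, 209 and 221 CPM without and 173, 151 and 173 CPM with N6L, gave a log2 difference of -0.31 ± 0.15 (edgeR adjusted p = 0.136). Of the subunits of the NAD-linked enzyme, Idh3a was at 0.77 times (log2 -0.38 ± 0.17), Idh3g at 0.85 times (log2 -0.24 ± 0.14) and Idh3b at 1.06 times its untreated cytoplasmic level (log2 0.08 ± 0.15), and none passed. In polysomes Idh3a was at 122, 96.9 and 123 CPM without and 91.4, 83.1 and 62.8 CPM with N6L, without overlap. Its log2 change there, -0.53 ± 0.17, did not pass (edgeR adjusted p = 0.0615) but passed with DESeq2 (adjusted p = 0.0219). Mitochondrial Mdh2 fell while cytosolic Mdh1, at 176, 185 and 174 against 160.1, 142 and 151 CPM, gave -0.24 ± 0.13 (edgeR adjusted p = 0.173), and all treated cultures lay below all untreated ones for both.

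The other members did not pass the test between treatments in either fraction. In glycolysis these were Hk1, Hk2, Gpi1, Pfkl, Pfkm, Pfkp, Aldoa, Tpi1, Pgk1, Pgam1, Eno1, Eno2, Pkm and Ldha, with cytoplasmic log2 differences from -0.31 (Aldoa) to 0.61 (Eno2, at 0.851 to 3.76 CPM). Pfkm came nearest at 105, 140 and 128 CPM without and 171, 155 and 168 CPM with N6L (log2 0.41 ± 0.17, edgeR adjusted p = 0.0765). It was called with library sizes alone, and with the length and GC offset and the replicate number as a block. With library sizes alone the cytoplasmic median of all genes was 0.19 instead of 0.04, and 2588 instead of 2013 genes were called higher. In polysomes Tpi1, the triose-phosphate isomerase gene, was at 584, 804 and 633 against 864, 853 and 1085 CPM (log2 0.47 ± 0.17, edgeR adjusted p = 0.0917) and Ldha at 1028, 1384 and 1139.5 against 1474, 1465 and 1876 CPM (log2 0.44 ± 0.16, edgeR adjusted p = 0.0950). All treated polysomal values lay above all untreated ones for both, and both passed with library sizes alone. There the polysomal median of all genes was 0.09 instead of 0.00, and 1082 instead of 835 genes were called higher. Of the pentose phosphate genes, G6pdx, which encodes the entry enzyme, gave 0.07 ± 0.19 and Tkt, transketolase, -0.02 ± 0.17 in cytoplasm, and Rpia, ribose-5-phosphate isomerase, gave -0.40 ± 0.17 (edgeR adjusted p = 0.0910). The pyruvate dehydrogenase subunit genes Pdha1, Pdhb, Dlat and Dld lay between -0.35 (Pdhb) and -0.01 (Dld) in cytoplasm and between -0.38 (Pdha1) and -0.20 (Pdhb) in polysomes.

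**Figure D2:**
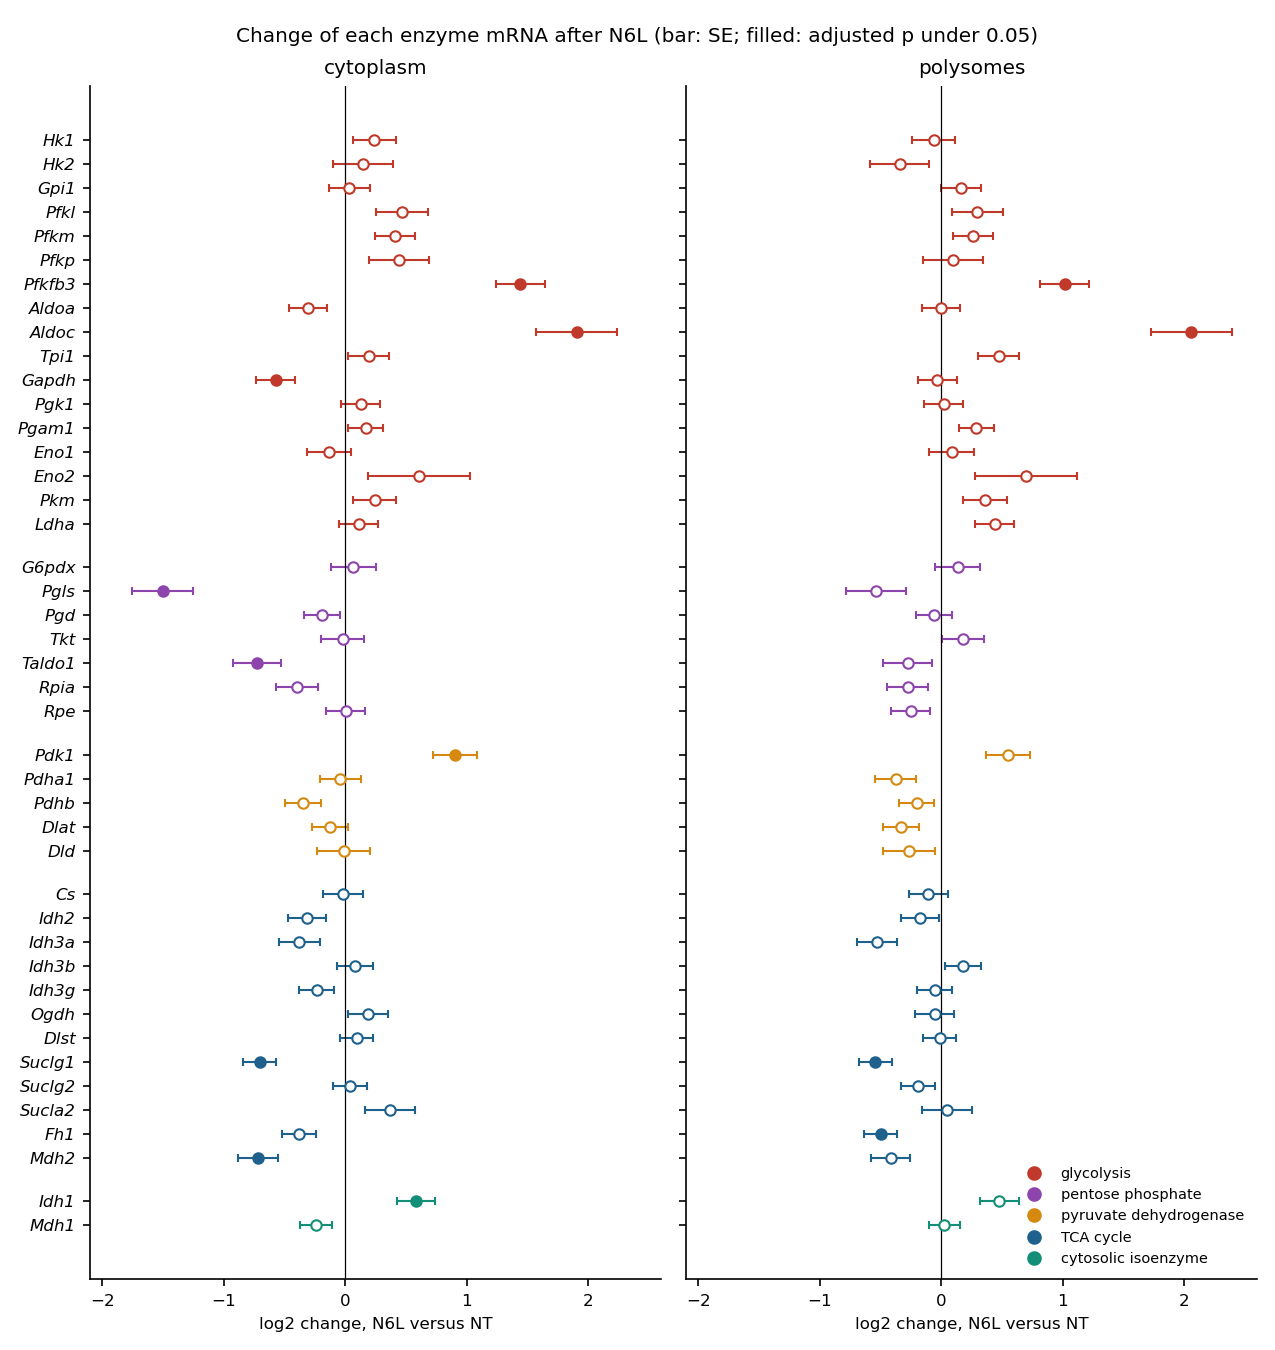
Log2 change after N6L with its standard error for each of the 43 enzyme mRNAs tested, in cytoplasm (left) and polysomes (right), coloured by class and filled where the edgeR adjusted p was under 0.05. In cytoplasm 14 of 17 glycolytic and 5 of 12 TCA cycle genes lay above 0, and in polysomes 13 of 17 and 2 of 12. Over all genes 52.8% lay above 0 in cytoplasm and 50.1% in polysomes.

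Cytosolic glycolytic and mitochondrial TCA cycle enzymes were compared as lists by counts and medians. In cytoplasm the glycolytic median log2 change was 0.19, with 2 genes called higher, 1 lower and 14 of 17 above 0. The TCA cycle median was -0.13, with 2 genes called lower and 5 of 12 above 0. Over all genes the median was 0.04, with 52.8% above 0, 14.5% called higher and 13.8% called lower. In polysomes the medians were 0.26 (13 of 17 above 0) and -0.14 (2 of 12 above 0), beside 0.00 and 50.1% over all genes. The distance between both medians was 0.32 in cytoplasm and 0.40 in polysomes, and it kept its sign in 17 of 17 alternative fits of each (0.25 to 0.42 and 0.27 to 0.44). These fits reuse the same genes and libraries. Other genes of the same pathways, described below, did not repeat this distance. Their medians were 0.004 in cytoplasm and 0.15 in polysomes for glycolysis (18 tested), and 0.16 and 0.14 for the TCA cycle (8 tested).

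Single cultures showed how even these medians were. Relative to the untreated cytoplasmic mean of each gene, the TCA cycle median stood at -0.03, 0.01 and 0.02 in the untreated cytoplasms and at -0.13, -0.22 and -0.16 in the treated ones, and at 0.09, 0.15 and 0.10 against 0.01, -0.13 and -0.17 in polysomes. Treated and untreated cultures did not overlap in either fraction. The glycolytic median stood at -0.05, 0.18 and -0.08 against 0.35, 0.10 and 0.19 in cytoplasm and at 0.02, 0.39 and -0.03 against 0.49, 0.25 and 0.51 in polysomes. Here NT culture 2 lay among the treated cultures in both fractions, so the glycolytic shift was within the spread of the cultures. Scaling by library size alone moved the median of all genes in cytoplasm to 0.19, and with it the TCA cycle median to 0.02, but its distance from all genes stayed at -0.17.

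The summed level gave another view, since a few abundant genes dominate it. The 12 TCA cycle genes summed to 2066 ± 83.4 CPM in untreated and 1721 ± 81.4 CPM in treated cytoplasm, and to 2286 ± 88.2 and 1976 ± 127 CPM in polysomes (SD, n = 3). The 18 glycolytic genes summed to 7563 ± 526 and 7484 ± 686 CPM in cytoplasm and to 8353 ± 1154 and 9657 ± 833 CPM in polysomes. The glycolytic sum in cytoplasm differed by less than the spread between cultures, and as a share of raw counts, without TMM, it went the other way, from 0.746 ± 0.0561% to 0.815 ± 0.0674%. In cytoplasm the 7 pentose phosphate genes had a median of -0.19 with 2 called lower. Over all genes the cytoplasmic median was 0.04, with 14.5% called higher and 13.8% lower. The pentose phosphate median in polysomes was -0.25 with none called. Over all genes the polysomal median was 0.00, with 6.01% called higher and 3.66% lower. The 5 pyruvate dehydrogenase genes had medians of -0.04 and -0.26, beside the same values over all genes, with Pdk1 in cytoplasm the 1 gene called.

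The ratio of polysomal to cytoplasmic level asks how much of an mRNA sedimented with several ribosomes. In untreated cells 0 of 43 members passed the test, against 0.209% of all genes (edgeR). The unadjusted edgeR p was under 0.05 for 2 members, beside 1855 of 13889 genes. With DESeq2 0 members passed, beside 281 of all genes. The fitted log2 ratios ran from -0.36 (Hk2) to 0.45 (Tpi1), and 33 of 43 were above 0, beside 53.7% of all genes. After N6L, 11 members were higher in polysomes than in cytoplasm and 2 lower, against 18.4% and 20.6% of all genes. The higher ones were the glycolytic genes Aldoa, Tpi1, Gapdh and Ldha, the pentose phosphate genes Pgls and Taldo1, the TCA cycle genes Idh2, Idh3g, Suclg1 and Mdh2, and Mdh1. The lower ones were Hk2, which encodes an inducible hexokinase, and Pfkfb3.

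Pgls had log2 ratios of 0.26, 0.34 and 0.36 in the untreated and 0.75, 1.23 and 1.69 in the treated cultures, and its fitted ratio after N6L was 1.29 ± 0.25 (edgeR adjusted p = 0.00459). Taldo1 followed with 0.33, 0.39 and 0.29 against 0.37, 0.74 and 1.14 (0.78 ± 0.20, edgeR adjusted p = 0.0102). Tpi1 had 0.40, 0.49 and 0.45 against 0.47, 0.74 and 0.95 (0.73 ± 0.17, edgeR adjusted p = 0.00712). Gapdh had 0.09, 0.21 and 0.23 against 0.35, 0.85 and 0.96 (0.72 ± 0.16, edgeR adjusted p = 0.005995), and Ldha 0.18, 0.32 and 0.22 against 0.33, 0.57 and 0.81 (0.58 ± 0.16, edgeR adjusted p = 0.0136). All 3 treated cultures of each of these genes were above 0, and for Pgls, Gapdh and Ldha all lay above the untreated ones.

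Smaller ratios were called for 6 more genes, with edgeR adjusted p from 0.0168 (Suclg1) to 0.0466 (Aldoa). Their untreated ratios were 0.36, 0.28 and 0.29 for Suclg1, 0.14, 0.23 and 0.11 for Mdh2, and 0.29, 0.31 and 0.27 for Idh2. For Mdh1 they were 0.19, 0.23 and 0.04, for Aldoa 0.06, 0.28 and -0.01, and for Idh3g 0.20, 0.29 and 0.16. Only for Suclg1 and Mdh1 did all treated ratios lie above the untreated ones. The fitted ratio after N6L was 0.47 ± 0.14 for Suclg1 (0.37, 0.45 and 0.58 by culture), 0.46 ± 0.16 for Mdh2 (0.18, 0.51 and 0.65), 0.43 ± 0.15 for Idh2 (0.21, 0.39 and 0.65), 0.42 ± 0.13 for Mdh1 (0.41, 0.48 and 0.38), 0.42 ± 0.16 for Aldoa (0.14, 0.37 and 0.71) and 0.40 ± 0.14 for Idh3g (0.28, 0.32 and 0.56). Hk2 stood at -0.43, -0.18 and -0.53 in untreated and -0.46, -0.81 and -1.44 in treated cultures (fitted -0.85 ± 0.25, edgeR adjusted p = 0.0171). Pfkfb3 stood at -0.20, 0.08 and -0.26 against -0.30, -0.42 and -0.88 (fitted -0.53 ± 0.20, edgeR adjusted p = 0.0460). N6L culture 3 was the farthest of the treated cultures from the untreated mean in 37 of 43 members, and in 71.7% of all genes. Without it 2 members passed, without N6L culture 2 only 1 and without NT culture 1 there were 8. The culture as a pairing block, which ties both fractions of 1 lysate, gave 22. Over all genes the same fits called, in that order, 1653 of 14088, 1153 of 14019, 4702 of 14084 and 7460 of 13889. The main fit called 5415 of 13889.

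**Figure D3:**
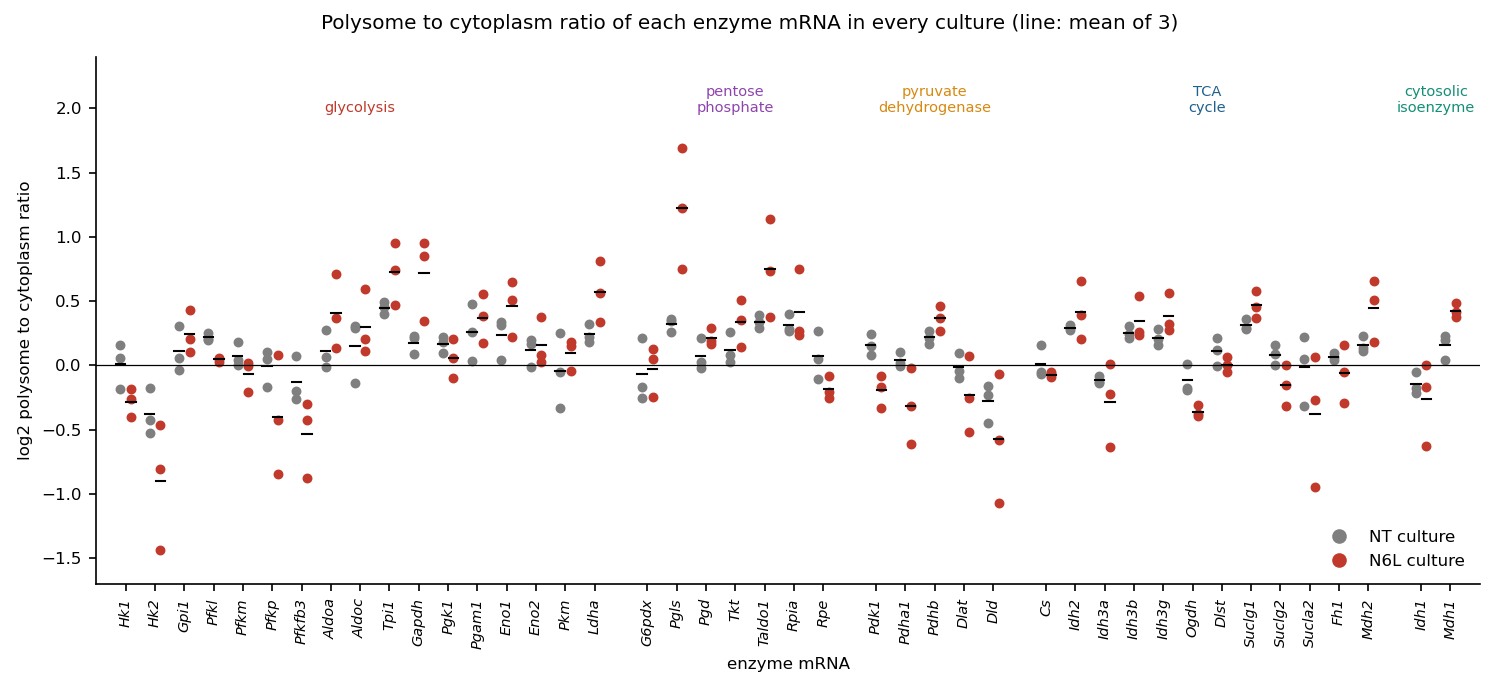
Log2 ratio of polysomal to cytoplasmic CPM of each enzyme mRNA in the 3 NT cultures (grey) and the 3 N6L cultures (red), with the mean of each group as a line. The treated points spread more widely than the untreated ones, from -1.44 (Hk2) to 1.69 (Pgls).

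Whether the ratio itself changed with N6L was tested as the translational index, the difference between the treated and the untreated log2 ratio. For this, 0 of 43 members and 0% of all genes passed (edgeR, smallest adjusted p = 0.555 among members). With DESeq2 0 members and 0 of 13889 genes passed. At an unadjusted p under 0.05 there were 2 members, Pgls with an index of 0.97 ± 0.35 and Gapdh with 0.54 ± 0.22, and 1074 of 13889 genes. The most negative indices belonged to Hk2 (-0.49 ± 0.35) and Pfkfb3 (-0.43 ± 0.28). Treated and untreated ratios did not overlap in 11 members (5 higher, 6 lower), against 29.7% of all genes, while levels did not overlap in 19 members in cytoplasm and 12 in polysomes, against 54.9% and 25.6%. The class medians of the index were 0.12 for glycolysis, -0.10 for the TCA cycle, 0.13 for the pentose phosphate pathway and -0.25 for pyruvate dehydrogenase, beside 0.01 over all genes. An effect of N6L on polysome loading was therefore not detectable for any single enzyme. More members passed the ratio test in treated than in untreated cells (13 against 0 of 43). So did more of all genes (5415 against 29 of 13889).

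Transcript length, which the list did not use, ran along with the ratio. Across the 43 members the fitted log2 ratio correlated with log2 length of the longest annotated transcript by r = -0.46 in untreated and -0.57 in treated cells, a description over genes that share libraries, beside -0.36 and -0.55 over 13867 genes. The 21 shorter members (1362 to 2688 nt) had a median ratio of 0.38 after N6L and the 22 longer ones (2724 to 8681 nt) of -0.07. Fitted with an offset for length and GC content, 7 members passed instead of 13, beside 2791 instead of 5415 of all 13889 genes. The ratios of Aldoa and Idh2 turned to -0.20 and -0.10. With this offset and the culture as a block, 10 members were higher and 5 lower, beside 5036 of all genes called. Under the offset without the block Pgls had a ratio of 0.84 and Hk2 of -0.54, and Tpi1 (0.23), Taldo1 (0.22), Ldha (0.20), Idh3g (0.12), Mdh2 (0.07) and Pfkfb3 (-0.23) came closer to 0. Counts were per gene, so which annotated transcript was expressed is not known. The offset used the longest, and cannot remove an effect of length where a shorter one was expressed. Glycolytic and TCA cycle members did not differ much in this respect, with median lengths of 2795 and 2608 nt, whereas their median GC contents were 52.8% and 48.0%.

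**Figure D4:**
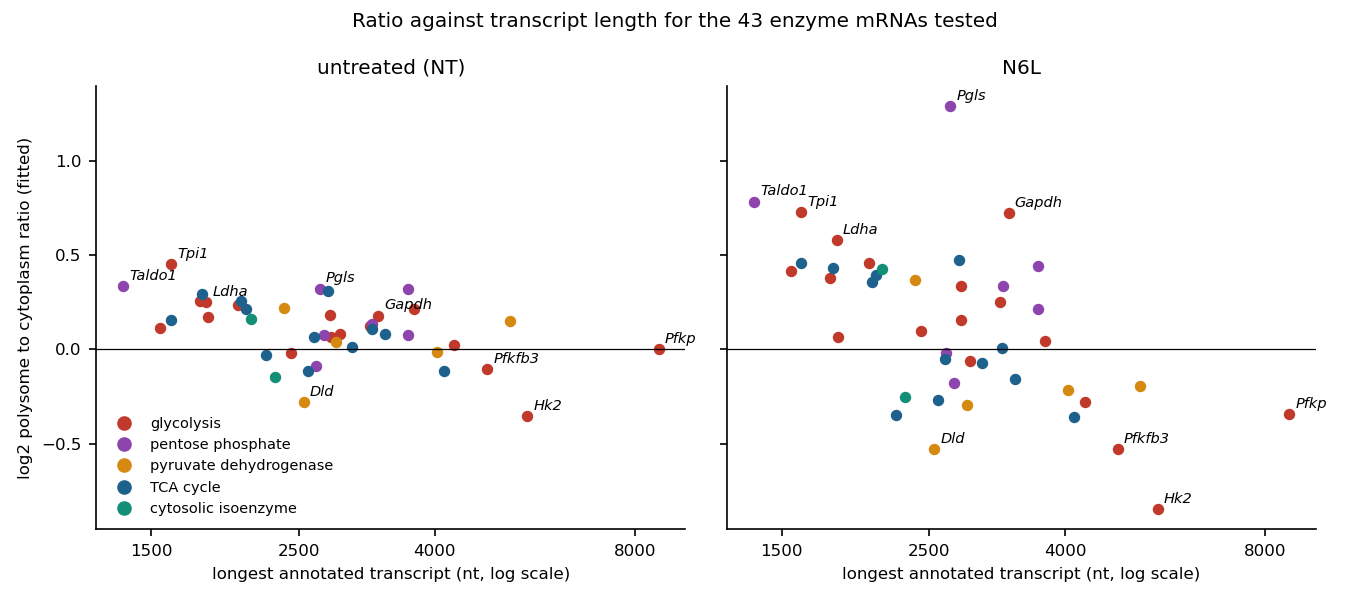
Fitted log2 ratio of polysomal to cytoplasmic level against the length of the longest annotated transcript (nt, log axis) for the 43 enzyme mRNAs tested, untreated on the left and N6L on the right, coloured by class. Short transcripts such as Taldo1 (1362 nt) and Tpi1 lay high and long ones such as Hk2 low, more so after N6L (r = -0.57 against -0.46).

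Other genes of the same pathways were taken from a list of 72, of which 63 were tested. In cytoplasm 11 of the 63 were higher and 8 lower after N6L, against 14.5% and 13.8% of all genes. In polysomes 7 were higher and 2 lower, against 6.01% and 3.66%. The largest rise was that of Pdpr, a regulatory subunit of pyruvate dehydrogenase phosphatase, from 1.10, 2.04 and 1.05 CPM to 13.1, 10.8 and 9.64 CPM in cytoplasm (log2 3.00 ± 0.35 SE, edgeR adjusted p = 0.000486), with 1.43, 2.52 and 1.17 against 6.84, 6.62 and 3.52 CPM in polysomes. Slc16a3, a lactate exporter gene, was called higher in both fractions at levels of at most 1.27 CPM. Acly, ATP-citrate lyase, rose in cytoplasm from 142, 148.1 and 118 to 259.9, 234 and 247 CPM (log2 0.86 ± 0.23 SE, edgeR adjusted p = 0.0142), and Pdp2 by 0.87 ± 0.25 (edgeR adjusted p = 0.0209).

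The largest falls in cytoplasm were those of Mpc2, a subunit of the mitochondrial pyruvate carrier, from 56.4, 50.2 and 76.9 to 26.7, 30.5 and 27.5 CPM (log2 -1.11 ± 0.21 SE, edgeR adjusted p = 0.00348), and of Pfkfb1, a paralog of Pfkfb3, from 5.89, 5.99 and 6.11 to 3.53, 2.85 and 2.79 CPM (log2 -0.98 ± 0.19 SE, edgeR adjusted p = 0.00407). Both also fell in polysomes, by -0.75 ± 0.21 and -1.06 ± 0.20. The dicarboxylate carrier gene Slc25a10 (-0.69 ± 0.24) and Adpgk, an ADP-dependent glucokinase (-0.66 ± 0.16), followed. Pfkfb isoforms were called in both directions, with Pfkfb2 and Pfkfb4 higher in cytoplasm (0.79 ± 0.20 and 0.71 ± 0.16) and Pfkfb1 lower. Succinate dehydrogenase, the TCA cycle enzyme of the inner membrane, was split too, with Sdhb and Sdhc lower (-0.65 ± 0.21 and -0.61 ± 0.16) and Sdhd higher (0.48 ± 0.16) in cytoplasm.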

How the data were processed

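RNA was sequenced from the cytoplasm and the pooled polysomes of 3 cultures of mPDAC cells with and 3 without N6L. Per the labels and methods, libraries came from poly(A)+ RNA with a stranded kit, and the authors aligned reads with STAR to mm10 and counted them per gene with HTSeq 0.5.3 (submitters' processing notes). The deposited values are raw counts, not normalized, for 50600 genes, with 4 technical replicates of each of the 12 libraries, which were close to sampling noise (chi-square over its degrees of freedom, 1.02 to 1.04) and were summed. Which annotation was counted, whether by strand, and what was done with multi-mapped reads is not given in the sources used here. The title and description of 3 technical replicates of the N6L culture 2 cytoplasm name different cultures. They were kept with culture 2 by title (the same measure was 1.01 to 1.04 against the remaining replicate of culture 2 and 11.2 to 11.4 against culture 1), and an alternative leaves them out.

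Symbols, coordinates and lengths came from GENCODE vM21 (GRCm38) and promoter windows from RefSeq (GRCm38.p6), found for 42 of 43 tested members. The window nearest to the GENCODE start was taken. Copies were pseudogene transcripts aligned by blastn 2.17.0 at 95% identity or more over 50% of their length. The fit used filterByExpr, TMM and the quasi-likelihood test of edgeR 4.0.16 in R 4.3.3 on all 12 libraries, with 4 group means and Benjamini-Hochberg adjustment over 13889 genes (limit 0.05). It was tested on simulated data. Log2 ratios per culture used a prior count of 2. p-values measure the spread between 3 cultures a group (common biological coefficient of variation 0.197). Both fractions of a culture came from 1 lysate and are paired. The correlation of their deviations from group means was 0.364, 0.452 and 0.645 for NT (cultures 1, 2, 4) and 0.0368, 0.199 and 0.229 for N6L. Alternatives were other scalings and filters, DESeq2 1.42.0, 1 technical replicate alone, each culture left out, only the groups compared, replicate blocks and offsets for length and GC content.

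The members, the list of other pathway genes, the markers and the comparisons were chosen with earlier results of these data known. Members called in a comparison between treatments or fractions are given with values per culture. For the rest, the isoenzymes of 1 step and some of the highest and lowest of a class are named. Cs, Ogdh, Dlst and Pgd were called in no comparison of the main fit and are not described above. Of these, Ogdh had the lowest ratio of the TCA cycle genes after N6L (log2 -0.36 ± 0.16). Other pathway genes are given as counts with the 4 largest changes in each direction, and the Pfkfb and succinate dehydrogenase genes were added after their values were seen.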

Additional observations from a re-analysis of the deposited data

How the results depend on the processing

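The limit on these data was the spread between 3 cultures a group. Aldoc in both fractions, and Pfkfb3, Pdk1, Pgls, Suclg1 and Mdh2 in cytoplasm, were called in each of 17 alternative fits, as was the polysomal ratio of Pgls after N6L. Over all called values of the enzymes, 346 alternatives kept the call, 92 lost it and 4 reversed. The 9 members called in cytoplasm became 14 with only the groups compared, 15 with the offset for length and GC content and 15 with that offset and the replicate number as a block, and 6 to 10 when a culture was left out. Over all genes the 3935 called became 5666, 4252 and 4602 in these fits, and 1295 to 4042 when a culture was left out. The 4 called in polysomes became 2 without a filter, 7 with DESeq2, 1 with only the groups compared, 11 with the offset and 15 with the offset and the block, and 1 to 5 when a culture was left out. Of all genes, 1343 were called in polysomes, and 1727, 2034, 328, 2783 and 2910 in these fits. There were 146 to 1579 when a culture was left out. The 13 ratios called after N6L became 8 with library size alone, 8 without a filter, 7 with the offset and 22 with the culture as a block, and 1 to 16 when a culture was left out. Over all genes the 5415 ratios called became 4881, 5384, 2791 and 7460, and 1153 to 5861 when a culture was left out. With the offset and the block 10 members were higher and 5 lower, beside 5036 of all genes called. In untreated cells the offset with the block called 1 ratio in place of 0, that of Rpe, beside 658 in place of 29 over all genes. With the offset the ratios after N6L of Aldoa (-0.20, and -0.20 with the block) and Idh2 (-0.10, and -0.11 with the block) turned negative. The median index of glycolytic genes went from 0.12 to -0.11 with the offset and -0.12 with the block as well. The cytoplasmic TCA cycle median of -0.13 was 0.015 with library size alone, by the shift of all genes, and -0.19 to -0.12 when a culture was left out. Across treatments a replicate number is only a number. Used as a block it gave 11 members in cytoplasm and 4 in polysomes, where Fh1 was lost (edgeR adjusted p = 0.0590). Over all genes this block called 4737 and 1355. The deviations of same-numbered cultures of both treatments correlated by 0.00756 to 0.296. The causes of these shifts were not tested, other than that the offset removes what follows the length and GC content of the longest annotated transcript.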
